A study of Homo sapiens with 12 samples.

Results

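PHF19 sites that kept MTF2 after PHF19 depletion were the PHF19 peaks of control K562 cells that overlapped, by at least 1 bp, an MTF2 peak in control cells and also an MTF2 peak in cells depleted of PHF19. They were defined by these 3 peak lists alone and numbered 2476 of 5621 PHF19 peaks. Of the others, 755 touched MTF2 only in depleted cells, 195 only in control cells and 2195 in neither. Because the overlap with MTF2 chose the sites, that overlap is described here and is no finding.

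K562 is an established cell line from chronic myeloid leukemia, which can be driven toward red cell precursors. All cells were grown in RPMI with serum and infected with an shRNA vector. The control, shCT, carried the empty vector, and sh1 and sh2 carried different hairpins against the long isoform of PHF19. MTF2 was compared between shCT and sh2, while the RNA-seq had 2 libraries each of shCT, sh1 and sh2. The whole series held 12 libraries, 6 of ChIP-seq with fly chromatin added as a spike-in and 6 of RNA-seq. The ChIP-seq had 1 library per condition, so no difference between conditions or between classes of sites was tested, and the 95% intervals below are exact binomial intervals that cover counting error only. The depth of the ChIP libraries is unknown, since peak lists hold no read totals. The header of the MTF2 list deposited for sh2 names sh4. The header of the PHF19 list names sh4 beside the control antibody sample, in the place where the MTF2 headers name IgG. Which library served as the background of the PHF19 peaks is not settled by the sources used here. The study kept only PHF19 peaks with a minimum of tags, and its final set is smaller than the sites described here alone, so all counts and shares here refer to the longer, unfiltered list.

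PHF19 and MTF2 are Polycomb-like proteins, which join the core of Polycomb repressive complex 2 (PRC2) as alternative accessory subunits. PRC2 places the repressive trimethyl mark on lysine 27 of histone H3, mainly at silent genes that control development. The Polycomb-like proteins bind CpG-rich DNA through a winged-helix domain and methylated lysine 36 of histone H3 through a Tudor domain, and they help recruit PRC2 to CpG islands. In hematopoietic cells PRC2 keeps silent the genes of other lineages.

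The CpG content of the DNA under single sites varied widely. The central 200 bases of 5 sites are given first, chosen for their PHF19 rank (GJC1, ATF3), their MTF2 rank (LHX1), their place in the cell cycle (CDKN1A) or as a Wnt ligand (WNT4). Those of the strongest PHF19 peak without MTF2 at a promoter (PRKD3) and of the strongest such peak outside promoters follow for contrast. All are the plus strand of hg19, 5′ to 3′, and capitals mark CG.
GJC1, chr17:42906977-42907176: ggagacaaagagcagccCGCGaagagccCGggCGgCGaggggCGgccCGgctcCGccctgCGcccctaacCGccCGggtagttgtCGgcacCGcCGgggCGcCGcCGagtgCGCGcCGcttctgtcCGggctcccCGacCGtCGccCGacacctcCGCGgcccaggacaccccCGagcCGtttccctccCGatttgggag
ATF3, chr1:212780731-212780930: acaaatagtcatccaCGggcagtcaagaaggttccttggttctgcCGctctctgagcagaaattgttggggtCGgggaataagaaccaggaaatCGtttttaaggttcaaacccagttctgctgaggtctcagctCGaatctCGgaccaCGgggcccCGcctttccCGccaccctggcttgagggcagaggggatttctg
LHX1, chr17:35292809-35293008: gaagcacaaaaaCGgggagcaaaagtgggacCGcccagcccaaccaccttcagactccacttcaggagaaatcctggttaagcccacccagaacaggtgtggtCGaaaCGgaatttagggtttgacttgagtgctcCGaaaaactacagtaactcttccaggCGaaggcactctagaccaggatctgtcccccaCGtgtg
CDKN1A, chr6:36646065-36646264: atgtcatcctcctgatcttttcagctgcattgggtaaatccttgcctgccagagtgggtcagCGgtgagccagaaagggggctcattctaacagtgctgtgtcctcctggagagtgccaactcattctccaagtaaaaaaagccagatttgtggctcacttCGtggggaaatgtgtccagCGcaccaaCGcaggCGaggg
WNT4, chr1:22467591-22467790: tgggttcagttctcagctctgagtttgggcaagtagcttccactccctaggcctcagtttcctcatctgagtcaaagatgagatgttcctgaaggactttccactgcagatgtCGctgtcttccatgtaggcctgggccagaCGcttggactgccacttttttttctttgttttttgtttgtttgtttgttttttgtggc
PRKD3, without MTF2, chr2:37552546-37552745: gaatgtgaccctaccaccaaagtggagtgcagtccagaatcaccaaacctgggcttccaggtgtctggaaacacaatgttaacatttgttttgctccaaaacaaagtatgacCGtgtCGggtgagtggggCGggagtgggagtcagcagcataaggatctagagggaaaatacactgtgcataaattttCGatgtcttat
No gene start nearby, without MTF2, chr17:46271246-46271445: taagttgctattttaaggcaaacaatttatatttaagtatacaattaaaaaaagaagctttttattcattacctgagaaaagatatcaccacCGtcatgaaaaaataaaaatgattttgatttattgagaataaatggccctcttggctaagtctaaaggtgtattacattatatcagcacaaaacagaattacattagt
The GJC1 window held 30 CG, the ATF3 window 9, the LHX1 window 7, the CDKN1A window 5 and the WNT4 window 2. The PRKD3 window held 4, more than that of WNT4, and the last held 1. Over all sites with MTF2 in both conditions the median was 5 CG in the central 200 bases (quartiles 3 and 11, n = 2476), and over PHF19 peaks without MTF2 it was 2 (quartiles 1 and 5, n = 2195). The quartiles of the 2 classes overlapped, so that a single window does not tell the class.

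CpG content was higher at sites with MTF2 in both conditions than at the other PHF19 peaks, except that promoter peaks without MTF2 had the higher CpG ratio. The ratio of observed to expected CpG over the whole peak, which corrects for the number of C and G, had a median of 0.41 at these sites (quartiles 0.30 and 0.61). It was 0.29 where MTF2 was found only in sh2, 0.28 where it was found only in shCT and 0.24 where it was absent. Their median GC content was 52.8%, against 45.8% in the sh2-only class, 47.7% in the shCT-only class and 42.6% without MTF2. At promoters, here within 2.5 kb of an annotated transcription start site (TSS), this order changed for peaks without MTF2. The 1001 promoter sites had a median CpG ratio of 0.62 and the 546 promoter peaks without MTF2 one of 0.70, with wide quartiles in each (0.43 and 0.76, 0.32 and 0.83), while the promoter medians were 0.43 in the sh2-only class and 0.54 in the shCT-only class. Median GC content at promoters was 56.7% at the sites and 54.3% without MTF2. Outside promoters the 1475 sites had a median of 0.34 and the 1649 peaks without MTF2 one of 0.22. Among the sites themselves, the tenth part with the strongest MTF2 score in shCT had a median ratio of 0.50 (n = 248) and the tenth part with the weakest 0.31 (n = 247). Promoter sites made up 57.3% of the strongest group (142 of 248) and 23.9% of the weakest (59 of 247). The part of promoter position in this difference was not tested.

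**Figure D1:**
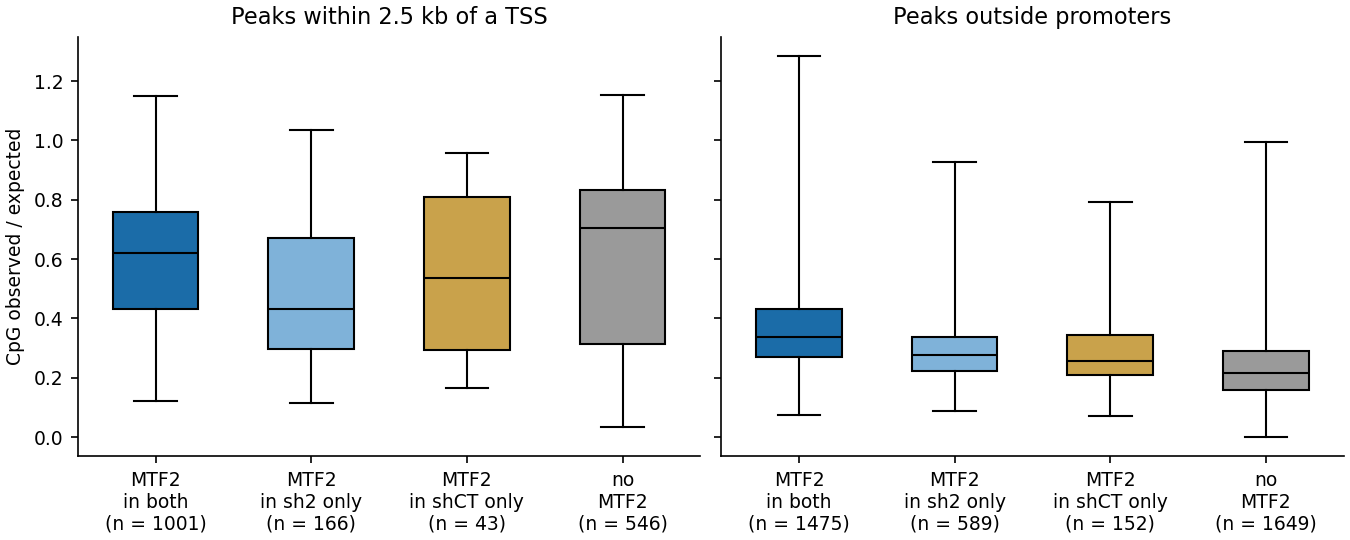
Ratio of observed to expected CpG in PHF19 peaks by MTF2 class, for peaks within 2.5 kb of a TSS and for the rest. Boxes span the quartiles with the median as a line, and whiskers run from the lowest to the highest peak. The median of the sites with MTF2 in both conditions (0.62) lies below that of peaks without MTF2 (0.70) at promoters and above it (0.34 against 0.22) elsewhere.

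Short motifs differed in frequency between the classes. Each was searched on both strands in the central 300 bp of every PHF19 peak, and a match is a description and not a binding site. CGCG, the densest CpG string searched, occurred in 34.9% of the sites (865 of 2476, 95% interval 33.1 to 36.9), in 17.7% of peaks without MTF2 and in 25.01% of all PHF19 peaks. At promoters its share was the same within the intervals, 55.1% at the sites and 54.8% without MTF2. Outside promoters it was 21.2% and 5.46%. The GC box GGGCGG, which does not contain CGCG but can adjoin it, occurred in 27.9% of the sites, in 13.9% of peaks without MTF2 and in 19.8% of all peaks. At promoters its share was 45.6% at the sites and 40.8% without MTF2, with overlapping intervals. Outside promoters it was 16.0% and 4.97%.

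Some other strings were less common at the sites. The string of ETS factors, CCGGAAG, occurred at 2.498% of promoter sites (25 of 1001, 95% interval 1.62 to 3.66) and at 7.88% of promoter peaks without MTF2 (43 of 546, 5.76 to 10.5), with 4.16% over all promoter PHF19 peaks. Outside promoters the order was the other way, 2.03% at the sites and 1.27% without MTF2, and over all positions it was 2.22% and 2.92% with overlapping intervals. AGATAA, bound by GATA factors such as the erythroid regulator GATA1, occurred in 11.7% of the sites, in 20.6% of peaks without MTF2 and in 16.1% of all peaks. TATAAA was found in 11.5%, 20.5% and 15.9%, and CCAAT in 25.8%, 36.4% and 30.8%. These 3 strings are AT-rich, and the GC content of the classes, 52.8% and 42.6%, differed in the opposite direction. Its part in these shares was not tested. CACGTG, the E-box of MYC and related factors, occurred in 5.53% of the sites, 4.10% of peaks without MTF2 and 4.71% of all peaks.

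The sites took in most of the strongest PHF19 peaks. The peak score is the number MACS gave each peak. It is used only to rank peaks within 1 list, since its unit is not named in the file. In the highest score quartile of the PHF19 list 1039 of 1405 peaks were sites with MTF2 in both conditions (74.0%, 95% interval 71.6 to 76.2). The share was 43.3% in the next quartile, 33.9% in the one after and 25.04% in the lowest. The median PHF19 rank lay in the top 31.9% of the list for these sites, the top 56.9% for the sh2-only class and the top 63.0% for peaks without MTF2. The sites were wide, with a median of 2152 bp (quartiles 1512 and 3209) against 1229 bp without MTF2. A wide peak can meet the 1-bp rule more readily, and over the sites width rose with score (Spearman rho 0.60). The part of width in the shares by score was not tested.

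MTF2 covered nearly the whole of most sites. The median site had 96.5% of its bases under MTF2 in shCT and all of them in sh2. MTF2 enclosed 974 sites entirely in shCT (39.3%) and 1813 in sh2 (73.2%). An MTF2 peak over at least 50% of the site was found at 2293 in shCT and 2438 in sh2. At the edge of the definition, a site on chr16:21258525-21259524 had 2 bp of MTF2 in shCT and 985 bp in sh2, and a site on chr6:44340313-44343460 had 9 bp and 2064 bp. Just outside it, a PHF19 peak at SLC22A23 (chr6:3457381-3460734) missed the nearest shCT MTF2 peak by 4 bp and one at C1orf186 (chr1:206245810-206248681) by 5 bp, and each touched MTF2 in sh2.

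At the sites the MTF2 scores of shCT and sh2 rose together. The 2 MTF2 scores at a site had a Spearman rho of 0.72 across the 2476 sites, while the PHF19 score had a rho of 0.30 with the MTF2 score in shCT and 0.24 with that in sh2. These are correlations over sites and not over samples, and scores of 1 list come from 1 library. The MTF2 lists are those that define the sites, and 555 sites lay in an sh2 peak with another site, so scores can repeat. No rho is given for MTF2 peaks away from PHF19, so these values describe the sites and do not set them apart. The median site overlapped an MTF2 peak in the top 17.8% of the shCT list and in the top 11.4% of the sh2 list.

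The highest PHF19 score of all belonged to GJC1, the gene of the gap junction protein connexin 45. Its 4221-bp peak (chr17:42904967-42909187) covered a TSS, with 4975 bp of MTF2 in shCT and 6531 bp in sh2, ranked 5 in shCT and among 9 peaks tied at rank 3 in sh2. HEY2, a transcriptional repressor that acts below Notch, followed with a 7417-bp peak (chr6:126065985-126073401), under 6613 bp of MTF2 in shCT and 6817 bp in sh2. ATF3, a stress-induced transcription factor, ranked 3, with 7153 bp of PHF19 (chr1:212777255-212784407), 6575 bp of MTF2 in shCT and 7634 bp in sh2. All 3 peaks lay across a TSS, and at all 3 the MTF2 domain was longer in sh2. RCAN3, PODXL and KLF14 were the other named genes among the 10 strongest, and a 5615-bp peak inside SKAP1, an adaptor of T cell signaling, ranked 6. The remaining 3 of the 10 strongest had no start site within 100 kb, and 1 of them (chr2:91669701-91671487) had the top MTF2 peak of the shCT list.

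Developmental genes held several of the strongest MTF2 peaks. LHX1, a LIM homeobox factor of kidney and head development, had MTF2 rank 2 in shCT and shared the tied rank 3 in sh2, with an 8669-bp PHF19 peak ranked 149 (chr17:35288575-35297243). BMP6, a ligand of the bone morphogenetic protein family, had MTF2 rank 4 in shCT, the same tied rank in sh2 and PHF19 rank 138. EFNA2, an ephrin ligand, had MTF2 ranks 6 and 1 and 13260 bp of PHF19. At that gene the lengths of MTF2, 13063 bp in shCT and 13312 bp in sh2, hardly differed. PBX3, ELFN1 and UNCX were also among the 10 sites with the highest MTF2 score in shCT, and EMX1 among the 10 highest in sh2.

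**Figure D2:**
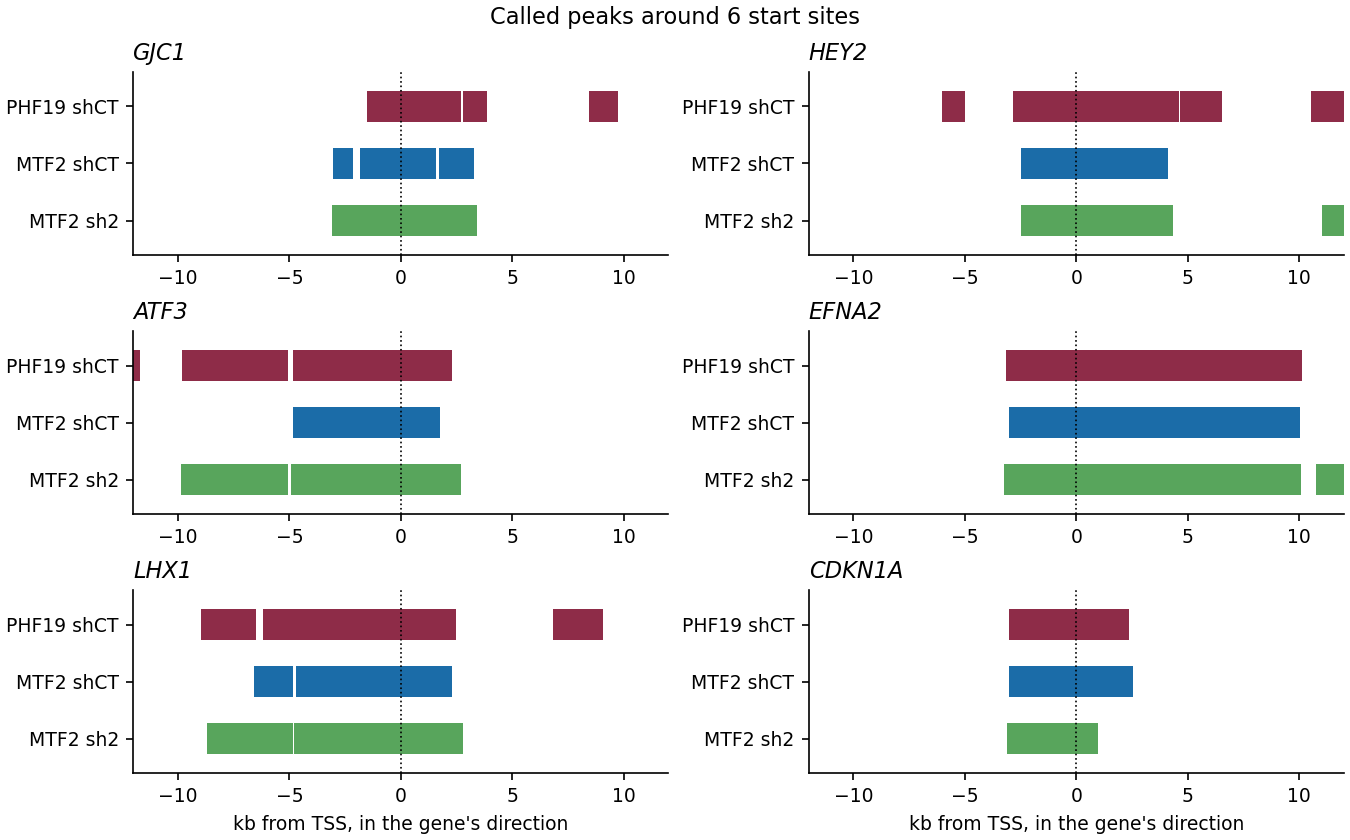
Called peaks of PHF19 in shCT and of MTF2 in shCT and sh2 around the start sites of 6 genes, as bars against distance from the TSS in kb, in the direction of transcription. PHF19 and MTF2 overlap at every TSS drawn, and at CDKN1A the MTF2 bar is shorter in sh2 (4098 bp) than in shCT (5533 bp).

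The widest site lay in the HOXD cluster, a row of homeobox genes that pattern the body axis. It ran over 16913 bp at HOXD8 and HOXD9 (chr2:176985112-177002024), with 26126 bp of MTF2 in shCT and 31253 bp in sh2. FXYD6, a regulator of the sodium pump, had 14509 bp of PHF19 at rank 3701, and MDFI, an inhibitor of myogenic factors, had 11789 bp at rank 4426. Width and score thus came apart at single sites, although over all sites they had a Spearman rho of 0.60.

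Long MTF2 domains held several sites. With each site counted in 1 MTF2 peak only, the 2476 sites fell in 2170 MTF2 peaks of sh2. Of these peaks 1921 held 1 site, 205 held 2, 35 held 3 and 9 held 4 or more. The most, 6, lay in a 27934-bp domain at LHX2, a LIM homeobox gene (chr9:126757695-126785628), where shCT had 5 separate MTF2 peaks. A 26127-bp domain at PAX2, a kidney and eye regulator, held 4 sites where shCT had 3 separate MTF2 peaks. FAM20C, a kinase of secreted proteins, held 5, and ELN, the elastin gene, held 4. In shCT the sites fell in 2291 MTF2 peaks by the same count. Some sites touched several, and 2482 shCT peaks shared with sh2 touched a site.

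Sites with MTF2 in both conditions lay at promoters more often than the other classes. The share within 2.5 kb of a TSS was 40.4% (1001 of 2476, 95% interval 38.5 to 42.4), against 22.0% in the sh2-only class (19.1 to 25.1), 22.1% in the shCT-only class (16.4 to 28.5) and 24.9% without MTF2 (23.1 to 26.7). A TSS lay inside 28.6% of the sites and inside 16.8% of peaks without MTF2. The sites were wider, and when only the centre of each peak counted the shares were 35.9% at the sites and 23.1% without MTF2. Another 698 sites (28.2%) overlapped a transcript farther from its start, and 777 (31.4%) overlapped none. Sites outside promoters had a median distance to the nearest TSS of 19228 bp (n = 1475).

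Genes with a site at their promoter were mostly silent or weakly expressed. Expression is the mean normalized count of each gene over all RNA-seq libraries, as the authors computed it. It joins control and depleted cells and gives a level and not a change, and in bulk RNA fewer cells expressing a gene and less RNA per cell cannot be told apart. Of 24391 genes placed on the genome, 980 had such a site (4.02%). The mean was under 10 at 509 of these 980 (51.9%, 95% interval 48.8 to 55.1), at 42.5% of all genes placed, at 46.9% of genes in the sh2-only class and at 83 of 584 genes with a PHF19 peak without MTF2 (14.2%, 11.5 to 17.3). Per kb of exon, which allows for gene length, the median of the mean count was 2.16 at genes with a site, 12.01 over all genes, 5.06 in the sh2-only class and 168 at genes with PHF19 but no MTF2. Among protein-coding genes only, 47.9% of 870 with a site were under 10, against 33.8% of all and 11.1% of those with PHF19 alone. Of the 980 genes 30 also had a PHF19 peak without MTF2. Genes with a site also made up 21 of the 177 genes of the sh2-only class and 9 of the 46 of the shCT-only class. The sh2-only share under 10 had an interval of 39.4 to 54.5, which overlapped that of the genes with a site.

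**Figure D3:**
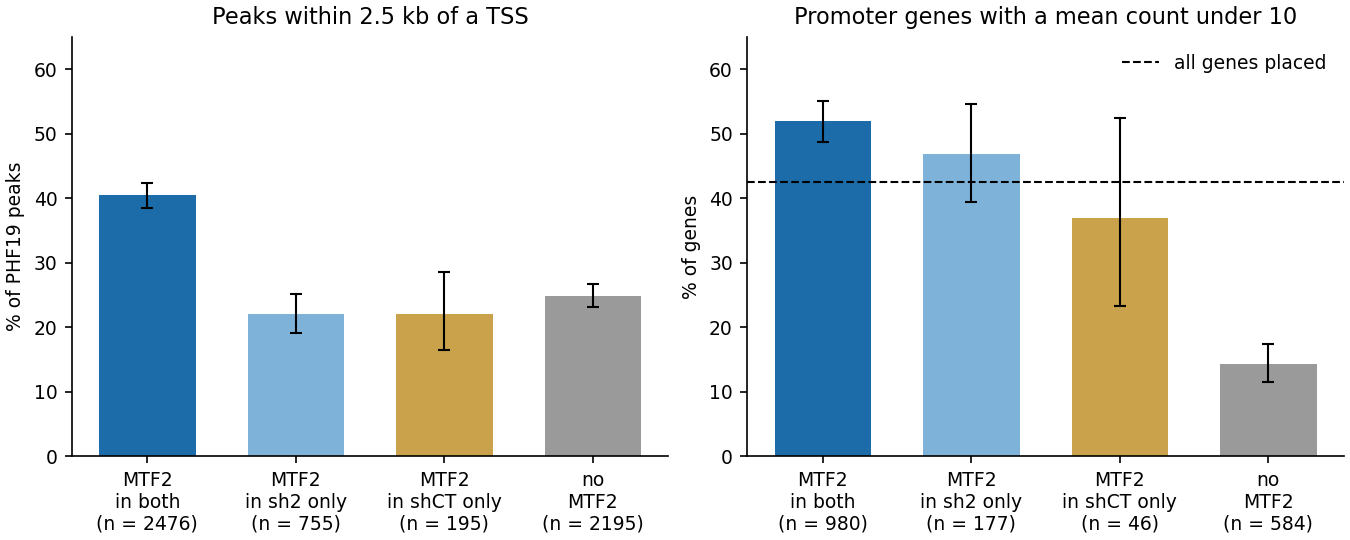
Left, percent of PHF19 peaks of each MTF2 class within 2.5 kb of a TSS. Right, percent of the genes at those promoters whose mean normalized count over all RNA-seq libraries was under 10, with the value for all genes placed as a dashed line (42.5%). Bars start at 0 and error bars are exact 95% binomial intervals. The sites with MTF2 in both conditions have the highest promoter share (40.4%), and their genes are low in 51.9%, against 14.2% without MTF2.

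Expression was lowest where MTF2 was strongest. In the quartile of genes with the highest MTF2 score in shCT at their site, 150 of 245 had a mean under 10 (61.2%, 95% interval 54.8 to 67.4). The share was 51.0%, 52.2% and 43.3% (37.0 to 49.7) in the quartiles that followed. A small group was well expressed all the same. The mean reached 1000 at 45 of the 980 genes (4.59%) and at 46.1% of genes with PHF19 but no MTF2. The highest means belonged to RPL38, a ribosomal protein (18197), PDIA6, an enzyme of protein folding (13280), MORF4L1, a reader of methylated lysine 36 on histone H3 (12123), and COL15A1, a collagen (7243), which were named after their values were seen. MTF2 at RPL38 spanned 4233 bp in shCT and 4415 bp in sh2.

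Genes at the sites included many members of the developmental families that Polycomb is known to hold silent. The lists below were assembled with earlier results of these data known, so their shares are descriptions beside the 4.02% of all genes placed. HOX genes had a site at 12 of 39, of which 10 had a mean under 10. The list was low as a whole, with a median of 2.55 over all 39 genes. HOXD8 and HOXD9, under the widest site, had means of 11.7 and 1.17. In the HOXC cluster, sites of 3803 and 4348 bp ended 144 and 1128 bp from the start sites of HOXC12 (2.55) and HOXC11 (0.26). Of 96 other homeobox genes 20 had a site, led by PHF19 score by EMX1 (mean 38.4), LHX6, NKX2-5 and LHX1. Of these 20 genes 13 had a mean under 10, in a list with a median of 0.35 over all 96 genes. LHX6, a factor of interneurons, stood out with a mean of 774, while NKX2-5, a cardiac factor, had 0.15 and LHX1 4.32.

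Among other developmental factors, basic helix-loop-helix and Notch genes had a site at 15 of 48. HEY2 (mean 1.78), the Notch ligand DLL1 (0.94), the retinal factor ATOH7 (0.70) and HES2 (29.7) led them. The DLL1 site also lay at FAM120B, whose mean was 1594. GATA and zinc finger developmental factors had a site at 9 of 34, and all 9 had a mean under 10. This list too was low as a whole, with a median of 0.82 over all 34 genes. Forkhead factors had 7 of 43, SOX factors 3 of 19 and PAX factors 1 of 9, the kidney and eye gene PAX2. Of the 7 forkhead genes 4 had a mean under 10. T-box factors had 0 of 16, which allows a share of up to 18.8%.

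Secreted signals and their receptors formed the next group. Of the 19 Wnt ligands 4 had a site, WNT4 (mean 3.22), WNT9A (1.37), WNT16 (1.18) and WNT2B (5.56). Receptors and modulators of Wnt signaling had 9 of 46, with the frizzled receptors FZD1 (75.7) and FZD3 (39.4), the agonist RSPO1 (630), the feedback inhibitor NKD2 (12.3) and NOTUM (339), an enzyme that inactivates Wnt. Of these 9 genes 2 had a mean under 10, while all 4 ligands did. The whole lists differed likewise, with a median of 12.9 over the 46 receptors and modulators and 1.45 over the 19 ligands. BMP, NODAL and activin ligands had 6 of 38, of which 5 were under 10, NODAL (0.34) and BMP6 (2.47) among them. The median over all 38 was 6.53. Growth factors and their receptors had 10 of 52, of which 5 were under 10, led by EFNA2, PDGFA, FGFR1 and PDGFB. Collagens and matrix genes had 4 of 36, of which 1 was under 10.

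Each list of red cell or megakaryocyte genes had a site at 1 gene at most. Globins had 0 of 11, heme biosynthesis 0 of 17, red cell membrane genes 0 of 33 and megakaryocyte genes 0 of 19. Erythroid factors had 1 of 21 (4.76%), near the 4.02% of all genes placed. The gene was BCL11A, the repressor of fetal globin (mean 70.0). The cells expressed red cell genes, with a mean of 7043 for GATA1 and a median of 8783 over the globins. The megakaryocyte list was low as a whole, with a median of 27.8 over its 19 genes, against 32.8 over all genes placed. Myeloid genes had 2 of 19, the macrophage receptor gene CSF1R (2.76) and the neutrophil peroxidase MPO (1.43). Mitotic genes had 0 of 30 and ribosomal proteins 1 of 74, which was RPL38. Of 28 genes of PRC1 and PRC2 themselves 1 had a site, the PRC1 subunit BMI1 (57.7), and neither PHF19 nor MTF2 had any PHF19 peak at a promoter. A count of 0 allows a share of up to 9.09% of 33 genes, 10.0% of 30, 15.8% of 19, 17.6% of 17 and 27.3% of 11, all above the 4.02% of all genes, so a lower share than that of other genes was not detectable in any of these lists.

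**Figure D4:**
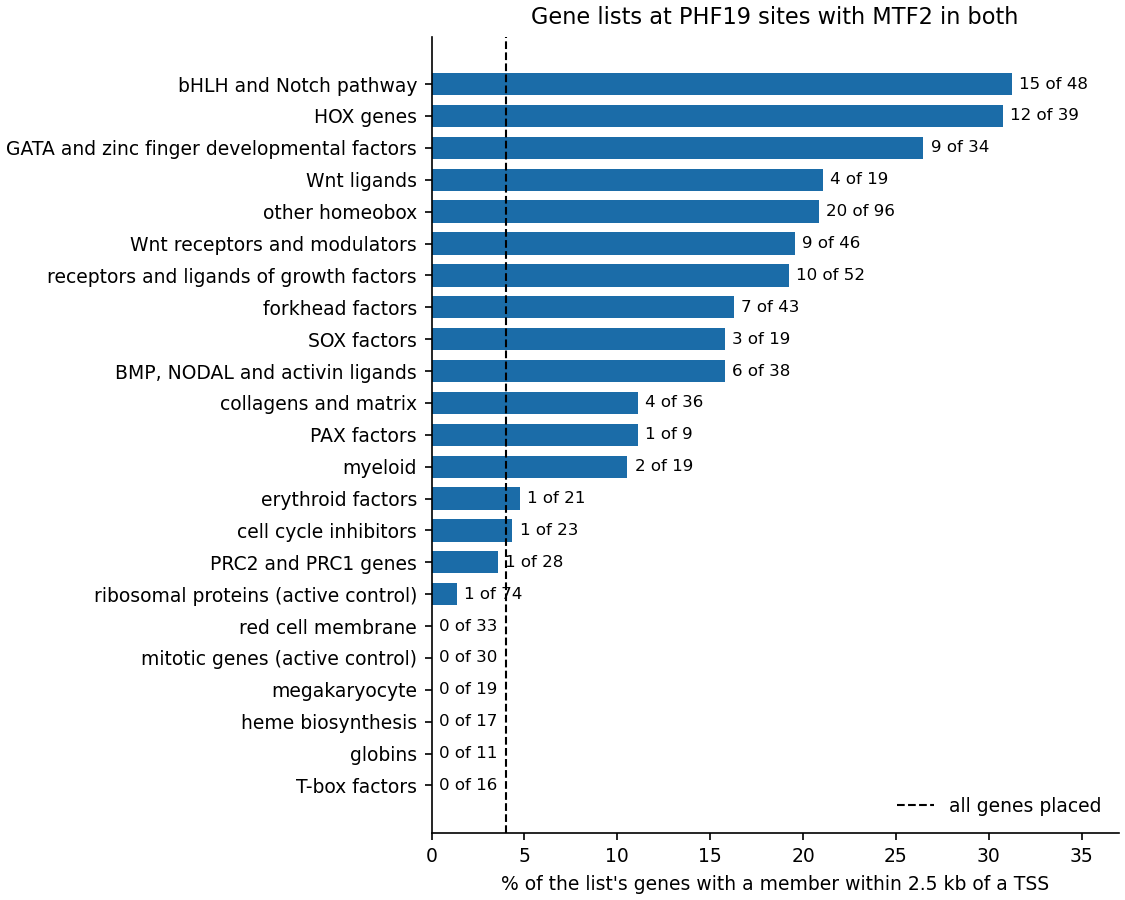
Percent of the genes of each list that had a PHF19 site with MTF2 in both conditions within 2.5 kb of a TSS, with the counts beside the bars. The dashed line is the share among all genes placed (4.02%). Helix-loop-helix and Notch genes (15 of 48) and HOX genes (12 of 39) are at the top, and 6 lists have no such gene.

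Of 23 cell cycle inhibitors 1 had a site (4.35%), near the 4.02% of all genes placed, and 2 had a promoter PHF19 peak without MTF2. The inhibitor with a site was CDKN1A. It encodes p21, which arrests the cycle by blocking cyclin-dependent kinases. Its 5379-bp PHF19 peak (chr6:36643476-36648854) ranked 361 and overlapped the noncoding RNA DINO, with a start site of PANDAR within 2.5 kb. MTF2 ranked 4342 of 12502 peaks in shCT and 10261 of 18287 in sh2, and it spanned 5533 bp in shCT and 4098 bp in sh2, a ratio of 0.74. The mean count of CDKN1A was 281. Of the genes the study names, ATF3, WNT4, NODAL, FZD3, NOTUM, FOXC1 and CCND1 also had a site. CCND1, the G1 cyclin D1, had a mean of 905 and a site at rank 3658. GATA1, KEL, MYB, MYC, SPI1 and PDGFRA had no PHF19 peak at a promoter.

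MTF2 was longer in sh2 at most sites, as it was at most MTF2 peaks elsewhere. The summed length of the MTF2 peaks touching a site had a median of 3028 bp in shCT (quartiles 1901 and 4939) and 5047 bp in sh2 (quartiles 3223 and 8557). The ratio of sh2 to shCT had a median of 1.55 (quartiles 1.18 and 2.24), and MTF2 was longer in sh2 at 2290 of 2476 sites (92.5%). Of MTF2 peaks shared between the conditions 95.2% were longer in sh2. It was at least 1.5 times as long at 1306 sites (52.7%). Over all 10403 MTF2 peaks of shCT that touched one of sh2 the share called by the same limit was 69.2%, and the share called in the other direction was 0.44%, against 19 sites (0.77%). With MTF2 peaks as the unit on both sides, 60.1% of 2482 at a site were at least 1.5 times as long and 72.0% of 7912 at no PHF19 peak. An sh2 peak can join several shCT peaks, of which those away from the site were left out of this sum. With every shCT peak that touches the sh2 peak counted, the median ratio at the sites was 1.30 and 870 sites (35.1%) reached 1.5 times. By that count 36.8% of the 2213 sh2 peaks at a site, 53.7% of 6281 at no PHF19 peak and 49.7% of all sh2 peaks shared with shCT reached it. These lengths come from the lists that define the sites, from 1 library per condition, and the sh2 list covered more of the genome (63.2 against 29.0 Mb), so the ratio describes the lists.

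MTF2 peaks at the sites were also longer in shCT. Peaks at a site had a median shCT length of 2635 bp and those at no PHF19 peak one of 1765 bp. Peaks long in shCT had small ratios, which is partly built in, since shCT length is the divisor of the ratio. In the shortest length quartile (369 to 1317 bp) the median ratio was 2.52 at the sites and 2.67 elsewhere, while the share at least 1.5 times as long was 85.1% and 80.6%. In the longest (2955 to 28405 bp) the median was 1.47 and 1.66 and the share 48.02% and 57.7%. In the 2 quartiles between, the median was 1.98 against 2.23 and 1.73 against 2.01. The part of shCT length in the difference was not tested. The ratio was lower at promoter sites (median 1.47) than at sites deeper in a transcript (1.73) or outside any (1.57).

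**Figure D5:**
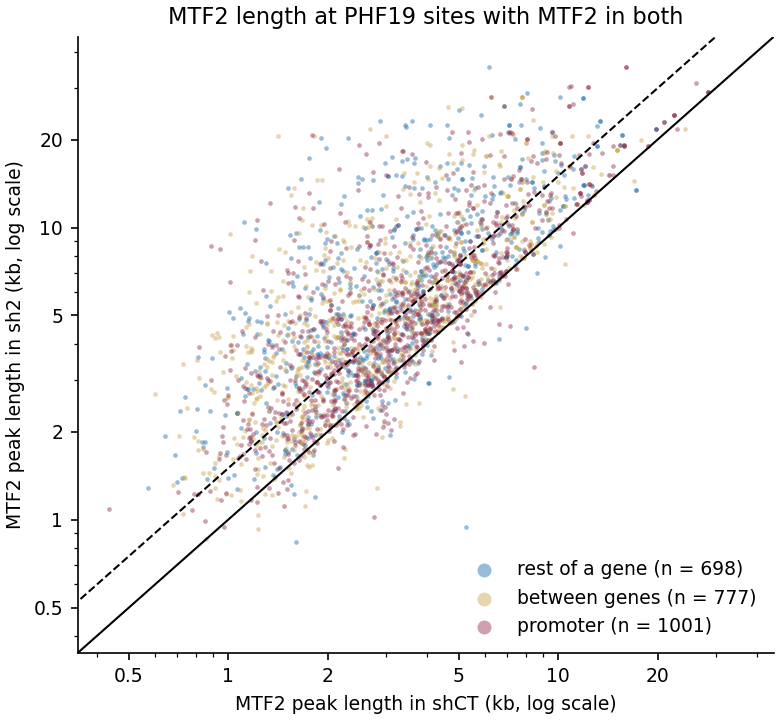
Summed length of the MTF2 peaks touching each PHF19 site, in shCT (x axis) and sh2 (y axis), in kb on log axes, 1 point per site, coloured by position. The solid line marks equal length and the dashed line a ratio of 1.5. Most points (2290 of 2476) lie above the solid line and 1306 lie on or above the dashed one.

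Named sites spanned this range. The sh2 domain at PAX2, 26127 bp long, touched 21696 bp of MTF2 in shCT. The sh2 domain at LAMC1, a laminin chain, spanned 6479 bp over 3547 bp of shCT peaks, and that at WNT4 16603 bp over 13779 bp. The summed length touching the site was nearly equal at HEY2, EFNA2, KLF14 and SOX8, with ratios of 1.03, 1.02, 1.00 and 1.00. It was shorter in sh2 at FZD1 (2756 and 1019 bp), PDGFA (7132 and 4612 bp), BMI1 (2799 and 1960 bp) and CDKN1A.

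The sites were spread unevenly over chromosomes. They made up 43 of 56 PHF19 peaks on chromosome 13 (76.8%, 95% interval 63.6 to 87.0) and 111 of 182 on chromosome 19 (61.0%), but 174 of 557 on chromosome 6 (31.2%, 27.4 to 35.3) and 24 of 86 on chromosome 18 (27.9%, 18.8 to 38.6). Assembly gaps of 100 kb or more lay within 1 Mb of 137 sites (5.53%) and of 59 peaks without MTF2 (2.69%). The share was 4.11% in the sh2-only class (95% interval 2.81 to 5.78) and 5.13% in the shCT-only class (2.49 to 9.23). Both intervals overlapped that of the sites, 4.67 to 6.51. The site on chr2:91669701-91671487 was among the 137 sites.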

How the data were processed

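MTF2 and PHF19 ChIP-seq peaks of K562 cells were used as deposited. Per the study's methods, unique alignments from Bowtie on hg19 and the fly genome dm3 went into MACS, which the authors ran on each library against a control. The deposited peak score was used for ranks only. The authors further required a minimum of tags per PHF19 peak, which the lists used here do not hold, so all 5621 peaks were kept, more than in the study's own set. RNA-seq reads were mapped by the authors with TopHat and counted on RefSeq exons. From the deposited DESeq2 table only the authors' mean normalized count over the 6 libraries, a score that pools control and depleted cells, was used. Its other columns hold the authors' comparison (fold changes, their errors and p-values) and were not used, so the level of PHF19 in each library was not analysed here.

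Overlaps and intervals came from pandas 2.3.3 and scipy 1.17.1, sequences from GRCh37 through pysam 0.24.0, and overlap functions were tested on simulated data. Of 27348 symbols in the table, 24391 (1041 through older symbols in RefSeq) were placed on GENCODE 44 basic transcripts in GRCh37 coordinates. Promoters were 2.5 kb each side of a TSS, as in the study. Intervals are exact binomial (Clopper-Pearson) at 95%. The sites and all 24 gene lists were chosen with earlier results of these data known. Genes were named by fixed rules: those the study names, those at the 10 sites highest in each score and the 10 widest, and up to 4 per list by PHF19 score. PHF19 ChIP in depleted cells and the IgG control were not used here.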

Additional observations from a re-analysis of the deposited data

How the results depend on the processing

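Of 31 values recomputed under an alternative, 18 stayed within the interval of the value reported, or a count within 1.5 times, and 13 moved. None reversed the order of the sites and the peaks without MTF2 where both were computed. Restricted to PHF19 peaks not below the median score, the sites numbered 1648, with a promoter share of 44.6% and a CpG ratio of 0.43. Peaks without MTF2 were not recomputed under this restriction, so the classes were not compared at like PHF19 score. The promoter share was 34.9% with a TSS window of 1 kb (20.9% without MTF2), 38.0% with protein-coding genes, 35.9% by the centre of the peak and 47.98% with every GENCODE transcript (29.7% without MTF2), the last chosen after seeing the data. The central 500 bp had a GC content of 53.4%. With only the strongest site of each sh2 MTF2 peak, chosen after seeing the data, the CpG ratio was 0.42. Counting MTF2-covered bases within 5 kb of the centre, the ratio of sh2 to shCT was 1.36, and counting every shCT peak that touches the sh2 peak, chosen after seeing the data, it was 1.30. A mean under 100 held for 80.1% of genes at sites, 55.9% of all genes placed, 66.1% in the sh2-only class and 31.3% without MTF2. With peaks from 2.5 kb upstream to the transcript end the share under 10 was 55.3% at sites and 27.5% without MTF2. Leaving out sites within 1 Mb of an assembly gap, also chosen after seeing the data, left 2339 sites and moved no value beyond its interval. No paired analysis was possible because no result came from a test and each ChIP condition had 1 library. Depth could not be judged from the peak lists.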
